A study of Mus musculus with 12 samples.

Results

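The hippocampus of 5×FAD mice was compared with the hippocampus of 2 other transgenic models of Alzheimer's disease (AD), the NCSTN and the MAPT model. Genes were taken as members when they were at least 2-fold higher or lower on the 5×FAD array than on each of the reference arrays separately. In addition, the scanner software had to mark the gene as well above background on the brighter side, that is on 5×FAD for higher genes and on both references for lower genes. Of 20032 genes measured outside the sex chromosomes, 1350 met the rule.

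Each model was measured on 1 single-color Agilent mouse array, which carried RNA pooled from 3 animals. The 3 arrays used here belong to a set of 12. Of the other 9, 5 carried hippocampus of 7-week-old ICR mice. These mice had been given amyloid beta (5 or 10 µM), streptozotocin (STZ, 2.5 or 3 mg/kg), or scopolamine (1 mg/kg). The remaining 4 carried cortex of C57BL/6 mice aged 1.5, 4, 17, and 22 months. All transgenic mice were labeled C57BL/6. The 5×FAD mice were 6 months old and came from the Jackson Laboratory. They carry mutated human transgenes, APP among them, under the neuronal Thy1 promoter. The NCSTN mice, which overexpress a mutated human nicastrin gene, were 10 months old, and the MAPT mice, which overexpress wild-type human tau, were 12 months old. Both came from a Korean institute. According to the methods, all of them were individually housed, were fasted overnight, and were male. Arrays of nontransgenic littermates or controls were not analysed here, so that the transgene, the age, and the source of the mice cannot be told apart. Differences in array processing cannot be told apart from the model either. With 1 array a model, no test was possible, and all values describe these 3 pools of RNA.

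In 5×FAD mice amyloid plaques form early, first in the subiculum and the deep cortex, and microglia and astrocytes gather around them. Microglia that surround plaques lose part of their resting profile and switch on phagocytic, lysosomal, and lipid genes, a change that depends on the receptor TREM2 and its signaling partner TYROBP. These cells are often called disease-associated microglia. Neurons, on the other hand, switch on immediate early genes such as Arc and Fos for a short time after strong activity, and the levels of these genes are often read as a trace of recent activity.

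Levels are given below as normalized log2 signals, and differences as log2 differences, where 1 stands for 2-fold. The share of genes well above background was 80.9% on 5×FAD, 76.4% on NCSTN, and 78.4% on MAPT, with no saturated spot. Repeat spots of the same probe had a median SD of 0.0505 to 0.0584 log2 units within each array. The NCSTN and MAPT arrays, which are different models and not replicates, differed by at most 0.63 for 95% of the genes that were well above background on both. The spread between them was wider for dim genes, with an SD of 0.55 at levels of 4 to 6 and 0.18 at levels of 10 to 12. In contrast to the stated sex, Xist, the RNA that silences an X chromosome in female cells, was at 9.59, 9.19, and 9.44 on the 5×FAD, NCSTN, and MAPT arrays, whereas the Y-linked genes Ddx3y and Eif2s3y were not well above background on any of them. The 3 arrays did not differ in this respect, and X- and Y-linked genes were left out of all counts.

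On the 5×FAD array, 898 genes (4.48% of all genes measured) were higher and 452 genes (2.26%) were lower than on both references. For comparison, 618 genes (3.09%) were 2-fold apart between NCSTN and MAPT in either direction. This count needed a difference from only 1 array. When genes had to be well above background on all 3 arrays, it fell to 227, whereas 652 genes were still higher and 399 still lower in 5×FAD. Of the higher genes, 203 were not well above background on either reference and 43 on only 1 of them, and of the lower genes, 53 were not well above background on 5×FAD. The larger differences were more often toward higher levels. Among genes measured on all 3 arrays, 118 genes were at least 4-fold higher than both references and 36 at least 4-fold lower, and 29 genes were at least 8-fold higher and 8 at least 8-fold lower. Just inside the threshold lay Vwce, with a smaller difference of 1.0001, and Pdzk1ip1 lay just outside, at 0.9997. Among lower genes, Wnt7a lay just inside and Ylpm1 just outside. Over all genes the median difference of 5×FAD from the mean of both references was -0.04. The members were chosen by these differences, so their size is a description and not a finding about the choice.

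**Figure D1:**
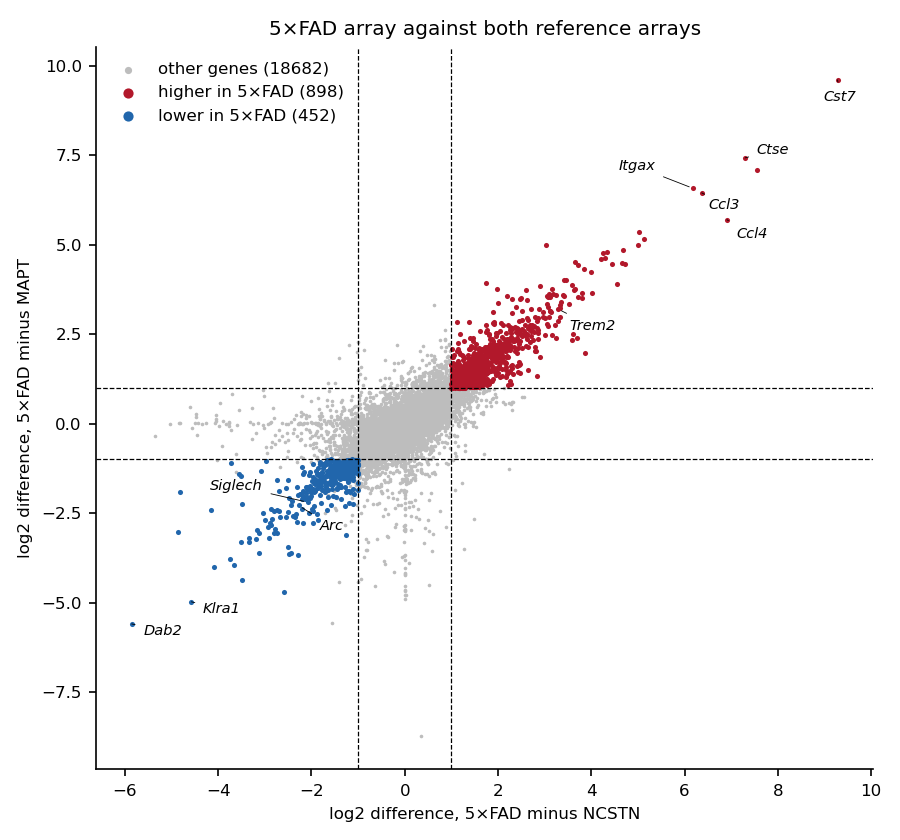
Log2 difference of 5×FAD from NCSTN (x axis) and from MAPT (y axis) for the genes measured outside the sex chromosomes, 1 point a gene, with dashed lines at 2-fold. The 898 higher genes (red) reach farther from 0 than the 452 lower genes (blue), with Cst7 as the farthest point, and the gray points along the axes are genes that stood apart on 1 reference array only.

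Most of the genes with the largest differences toward higher levels were genes of microglia and other phagocytes. Cst7, which codes for cystatin F, an inhibitor of lysosomal cysteine proteases, had a level of 13.41 on 5×FAD, 4.13 on NCSTN, and 3.80 on MAPT. It was well above background on the MAPT array but not on the NCSTN array. The chemokine gene Ccl3 was at 11.14 on 5×FAD against 4.77 and 4.69, which is 85.0-fold over the mean of both references. Its neighbor Ccl4 was at 10.90 against 3.99 and 5.20. These chemokines recruit monocytes and other leukocytes. Itgax, the integrin subunit CD11c, was at 11.25 on 5×FAD and at 5.07 and 4.67 on the references, an 83.2-fold difference. In each of these genes the 5×FAD level lay far above both reference levels, which for Ccl4 were themselves over 2-fold apart.

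Other genes among the 15 that were farthest above the references also code for immune receptors and enzymes. Lilrb4a, an inhibitory receptor of myeloid cells, was at 10.73 on 5×FAD against 5.30 on both references by its brighter probe, the dimmer one not being well above background on either reference. Il4i1, a secreted amino acid oxidase, was 24.1-fold higher, and Ch25h, which makes 25-hydroxycholesterol, 22.1-fold. The chemokine gene Ccl6 was 17.4-fold higher, Rab7b, a regulator of late endosomes, 16.9-fold, and the Toll-like receptor genes Tlr1 and Tlr2 were 16.9-fold and 12.8-fold higher. Bcl2a1d, an antiapoptotic gene of the Bcl2 family, was 13.2-fold higher, and Aspg, an asparaginase gene that rises in reactive astrocytes, 13.3-fold. Masp2, a protease of the lectin pathway of complement, had differences of 4.24 and 4.30 on the 2 probes measured on all 3 arrays, and its remaining probe was well above background on 5×FAD alone. Gm1987, a predicted gene, was at 9.03 on 5×FAD against 5.39 and 5.27, but it was at up to 13.51 on the cortex arrays and up to 10.16 on the ICR arrays. Cd300lf, a lipid-binding receptor of myeloid cells, had 3 probes that disagreed in size. A pair of them was well above background on 5×FAD alone, and the third, measured on all 3 arrays, had a difference of 1.04. Lilrb4a, Bcl2a1d, and Gm1987 belong to families of near-identical genes, and Ccl3 and Ccl4 are related genes. Probes of these genes may also read related transcripts, which was not tested.

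For genes that the reference arrays did not measure above background, the size of the difference is uncertain, and a nominal lower limit is given as "at least". It was taken against the dimmest probe well above background on each reference array (2.25 on NCSTN, 2.10 on MAPT). Where the level of the gene itself was higher, that level was used. Brighter signals can also lack the mark, as Cst7 did at 4.13 on NCSTN. The true difference may therefore be smaller than the nominal limit. Ctse, cathepsin E, an endosomal aspartic protease, was at least 128-fold higher in 5×FAD, with a level of 9.18. Bpifb9b, a gene of the BPI fold family, was at least 133-fold higher. Next came the complement inhibitor gene Cfi (at least 22.3-fold), the tubulin ligase gene Ttll2 (at least 21.1-fold), the transglutaminase gene Tgm1 (at least 20.1-fold), the adhesion receptor gene Adgrg5 (at least 19.9-fold), and Lilr4b, a relative of Lilrb4a (at least 16.1-fold). Bpifb9b was not particular to 5×FAD among the 12 arrays, since it reached 8.79 on a cortex array, whereas Tgm1 stayed at or below 2.34 on the 5 ICR and 4 cortex arrays.

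Of the 37 measured genes on a list of disease-associated microglia, 23 were higher in 5×FAD and none was lower, against 4.48% of all genes higher. The median difference over the list was 2.01, and 35 of its 37 genes had a difference above 0. Both genes of the TREM2 receptor complex were higher. Trem2 was at 14.90 on 5×FAD, 11.62 on NCSTN, and 11.69 on MAPT, a 9.47-fold difference. Its adaptor Tyrobp was at 14.86 against 12.13 and 12.09, or 6.74-fold higher. For this receptor pair the reference levels lay close together. The growth factor gene Csf1, which keeps microglia alive, was 5.93-fold higher, and Igf1 4.09-fold higher, both by the mean of probes that disagreed in size. For Csf1 the differences were 1.19 on the brightest probe and 3.29 and 3.225 on the others. For Igf1 they were 3.21, 0.66, 1.21, and 3.05. Cd52 was 7.87-fold higher, Lyz2, a lysozyme of phagocytes, 8.22-fold higher, and Lgals3, galectin-3, 4.73-fold higher. Lpl, lipoprotein lipase, was higher at 10.90 against 9.12 and 9.78, but it was between 10.85 and 11.13 on the 5 ICR arrays and between 7.78 and 8.34 on the 4 cortex arrays.

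Several known genes of the same list did not differ 2-fold. Apoe, the main lipoprotein of the brain, was at 17.70 on 5×FAD and 17.19 on both references, a difference of 0.51 at the upper end of the signal range. Axl, a receptor for apoptotic cells, had a difference of 0.88, and Cd63, a lysosomal membrane gene, one of 0.87. Spp1, osteopontin, was at 6.57 against 7.08 and 6.23, and Gpnmb at 7.38 against 7.38 and 6.53. Spp1 and Gpnmb lay within the range of the references. Clec7a and Cd68, also on the list, had no probe that could be named and were not analysed here.

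**Figure D2:**
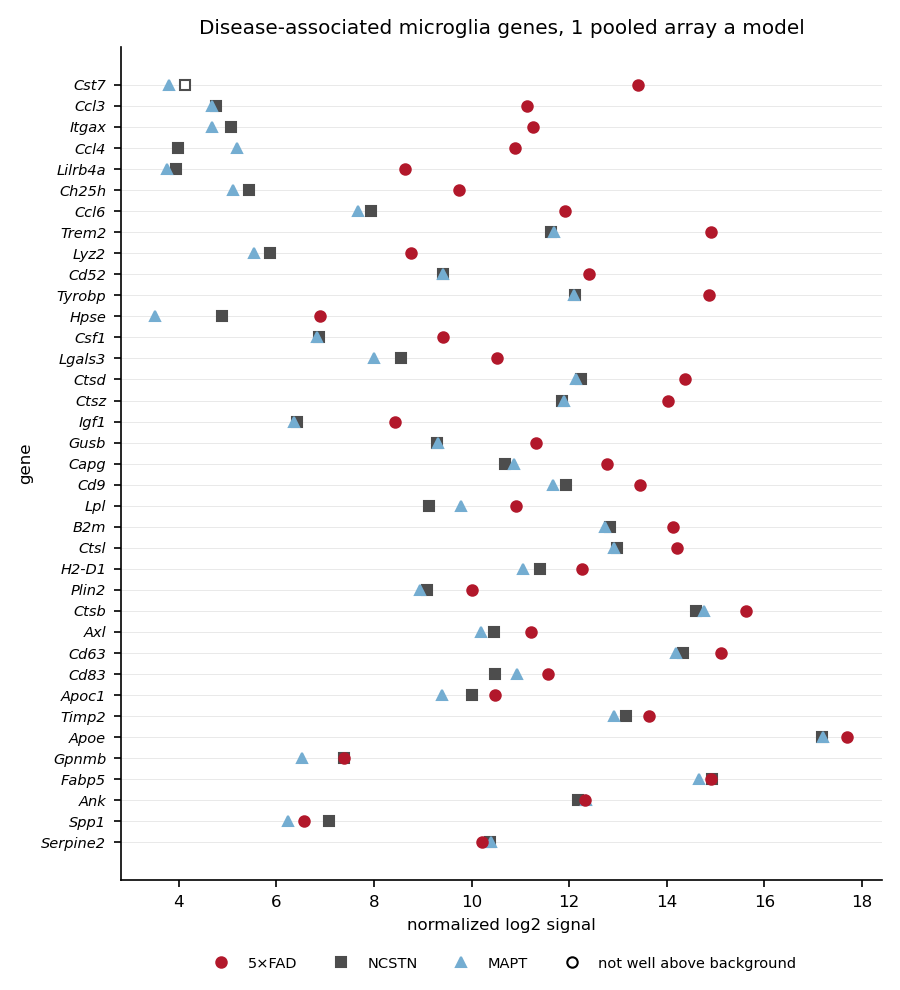
Normalized log2 signal of the 37 measured genes of the disease-associated microglia list on the 5×FAD (red circles), NCSTN (dark squares), and MAPT (blue triangles) arrays, sorted by difference, with open symbols for levels not well above background. The 5×FAD point lies right of both references from Cst7 to Apoe, and for the last 5 genes, from Gpnmb to Serpine2, it lies among or near them.

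Resting microglial genes did not behave as a single group. Of 18 measured genes of homeostatic microglia, 5 were higher and 2 lower, with a median difference of 0.82. The fractalkine receptor gene Cx3cr1 was 3.79-fold higher, with 13.35 on 5×FAD against 11.38 and 11.48, and all 3 of its probes were higher. Aif1, which codes for the common microglial stain IBA1, was 2.59-fold, and Csf1r, the receptor of CSF1, 2.48-fold higher. Tmem119 and P2ry12, often used to tell resting microglia from other macrophages, had differences of 0.57 and 0.47 and were not members. In the opposite direction, Siglech, a sialic acid receptor, was at 10.70 on 5×FAD against 12.77 and 12.89, and the fructose transporter gene Slc2a5 at 8.08 against 9.87 and 9.82. The 2 probes of Siglech had differences of -3.62 and -0.66, the smaller one being that of the brighter probe. Without the MAPT array, 8 genes of the list were higher. In bulk tissue, more microglia cannot be told apart from more RNA of a gene per microglial cell.

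Phagocyte receptors and their signaling genes were mostly higher, with 30 of 45 measured genes higher, none lower, and a median difference of 1.55. They include Fc receptors, which bind antibodies (Fcgr1, Fcgr2b, Fcgr3, Fcgr4, and the shared chain Fcer1g), the coreceptor Cd14 (5.81-fold), the lectin Cd72 (9.99-fold), and the SLAM family receptor Slamf9 (7.78-fold). Cd180, a Toll-like receptor relative, was at 5.61 on 5×FAD and not well above background on either reference. Its nominal lower limit of 10.3-fold rests on those reference levels. Signaling genes included Irf8 (a difference of 2.32), a transcription factor of microglia, and the AD risk genes Inpp5d (3.59-fold) and Plcg2 (2.93-fold), both of which act below TREM2. Itgam (CD11b) and Tlr4 did not differ 2-fold, with differences of 0.39 and 0.23. Under normexp background correction, 23 genes of the list were higher.

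The promoters of these genes were searched for the GAGGAAGT site of PU.1, the master regulator of microglia, in the 250 bases before each start site. Promoter sequences (RefSeq, GRCm38.p6) were found for 684 of the 898 higher genes, 336 of the 452 lower genes, and 15831 of all genes. On either strand, the site was found in 6 of 23 promoters of higher phagocyte genes, in 6.29% of promoters of all higher genes, in 2.98% of those of lower genes, and in 2.69% of all. The stretches below show the match in capitals with up to 20 bases on each side, cut at the start site, and are shown for 5 of the higher receptor and signaling genes. Of these, Fcgr4 was 2.74-fold and Vav1, a signaling adaptor, 4.26-fold higher. They read 5′ to 3′ on the strand of the gene, and in Cd72 and Fcgr4 the site is in reverse orientation.
Cd72 (chr4:43454648-43454695, minus strand): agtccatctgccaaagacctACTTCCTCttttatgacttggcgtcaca
Slamf9 (chr1:172475332-172475359, plus strand): ggaggagtttaatgtgtacaGAGGAAGT
Vav1 (chr17:57279069-57279099, plus strand): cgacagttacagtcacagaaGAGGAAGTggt
Inpp5d (chr1:87620272-87620311, plus strand): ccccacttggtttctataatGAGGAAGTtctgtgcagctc
Fcgr4 (chr1:171018882-171018925, plus strand): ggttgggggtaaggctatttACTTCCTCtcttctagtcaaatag
In these promoters the site lay 0 to 41 bases before the start site. A match is a description of letters and does not show that PU.1 was bound. None of the 18 promoters found for higher genes of the disease-associated microglia list held these letters in the window.

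Genes of the lysosome, where phagocytosed material is broken down, were higher in 15 of 43 cases and lower in 1, with a median difference of 0.87. The cathepsin gene Ctss was at 15.68 on 5×FAD against 13.19 and 13.16, or 5.66-fold higher. Ctsz was 4.45-fold higher and Ctsd 4.51-fold, and the glycosidases Gusb, Man2b1, and Naglu were between 3.12-fold and 4.02-fold higher. Grn, progranulin, was 2.55-fold higher. By contrast, Galns, a sulfatase, was at 9.45 against 10.89 and 10.91, and Npc1, which exports cholesterol from the lysosome, had a difference of -0.78. The CLEAR core GTCACGTG, the site of the lysosomal regulator TFEB, was found in 7 of 33 lysosomal promoters and in 2.77% of all promoters, and 2.19% of promoters of all higher genes held it. Ctsd and Naglu were the higher lysosomal genes with a match, and 1 of 2 matches is shown for Ctsd.
Ctsd (chr7:142387898-142387945, minus strand): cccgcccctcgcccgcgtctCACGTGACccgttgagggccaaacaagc
Naglu (chr11:101069999-101070046, plus strand): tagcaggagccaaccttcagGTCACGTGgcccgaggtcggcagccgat

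Genes of lipid transport differed less. Of 21 measured genes, Ch25h, Lpl, and Lcat, which esterifies cholesterol, were higher, Abca1, the cholesterol exporter, had a difference of 1.02 and was below 2-fold against 1 reference, and Clu had one of 0.50. Apod was lower by the mean of its probes, but the probes were opposed. The brighter one was at 15.85 on 5×FAD against 15.13 and 15.24, and the dimmer one was not well above background on 5×FAD and at 7.87 and 7.90 on the references. Srebf2 was likewise higher by its mean and had opposed probes, with differences of 3.15 and -0.79. The other 18 genes of cholesterol synthesis were not members, and the median difference of this list was -0.07.

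Complement and antigen presentation genes were higher in part. Of 20 measured complement genes, 8 were higher and none lower. C3, the central component, was at 12.30 on 5×FAD against 9.18 and 9.14, and its receptor gene C3ar1 at 7.59 against 4.53 and 4.81. C4b was 5.59-fold higher, C1qa 4.41-fold, the inhibitor gene Serping1 4.19-fold, and C1qc 2.26-fold, while C1qb had a difference of 0.58. The genes of the C1q complex thus did not differ by the same amount. Among 21 measured genes of MHC class I and peptide loading, B2m, the shared light chain, Psmb8, an immunoproteasome subunit, and Tap1, the peptide transporter, were higher, each by 2.36-fold to 2.51-fold. The list had a median difference of 0.92, and the class I heavy chain genes H2-D1 and H2-K1 had differences of 1.03 and 0.92 but were below 2-fold against at least 1 reference. Without the NCSTN array, 9 genes of the list were higher. In MHC class II, the nonclassical genes H2-Oa (5.66-fold), H2-Ob, and H2-DMb1 (3.05-fold) were higher. The dimmer of 2 probes of H2-Ob was not well above background on MAPT, and the brighter one had a difference of 1.34. The classical genes H2-Ab1, H2-Aa, and H2-Eb1 had differences of 0.73, -0.39, and -0.09, and the nonclassical H2-DMa had one of 0.36.

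Interferon-responsive genes were higher in 16 of 58 cases, with none lower and a median difference of 0.69. Cxcl10, a T cell chemokine, was at 8.85 against 6.09 and 6.50, Ifi204, a DNA sensor, at 8.60 against 6.58 and 6.64, and Ifi27l2a at 11.23 against 9.67 and 9.31. The antiviral gene Oas1a was 3.51-fold higher, and Ifit3, Stat2, and Usp18 were between 2.19-fold and 2.31-fold higher. Isg15 had a difference of 0.76, and Rsad2 one of -0.43. Under normexp correction, 9 genes of the list were higher. The interferon-stimulated response element core GAAANNGAA (N for any base) was found on either strand in 24 of 45 promoters of the list, in 8 of 11 promoters of its higher genes, in 11.1% of promoters of all higher genes, in 8.63% of those of lower genes, and in 8.02% of all promoters.
Cxcl10 (chr5:92349074-92349122, minus strand): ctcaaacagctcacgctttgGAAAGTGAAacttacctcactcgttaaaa
Oas1a (chr5:120907526-120907559, minus strand): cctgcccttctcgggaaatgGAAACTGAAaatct
Gbp2 (chr3:142620585-142620633, plus strand): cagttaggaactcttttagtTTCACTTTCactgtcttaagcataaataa
Stat2 (chr10:128270257-128270305, plus strand): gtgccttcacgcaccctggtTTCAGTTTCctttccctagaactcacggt
Ifit3 (chr19:34583388-34583436, plus strand): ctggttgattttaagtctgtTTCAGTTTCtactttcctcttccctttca
The capitals mark the core, which is in reverse orientation in Gbp2, Stat2, and Ifit3. The Ifit3 promoter held 3 matches and the Oas1a promoter 2, of which 1 each is shown.

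Besides Ccl3, Ccl4, and Ccl6, the chemokine and cytokine genes Ccl12 (6.33-fold), Ccl2 (4.07-fold), Ccl9 (3.42-fold), Cxcl16 (4.38-fold), and Tgfb1 (3.42-fold) were higher. In all, 17 of 36 measured genes of this list were higher and none was lower. Tnf, at 4.15, and Il6, at 4.94, were well above background on the 5×FAD array alone, and Il1b, at 5.38 against 4.80 and 3.59, was below 2-fold against NCSTN. With normexp correction, which reduces differences of dim genes, 10 genes were higher. The CCL2 receptor gene Ccr2, which marks monocytes from the blood, was not well above background on any of the 3 arrays.

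Reactive astrocyte genes were higher in 11 of 27 cases, with a median difference of 1.08. Gfap, the intermediate filament of astrocytes, was at 13.12 on 5×FAD, 11.84 on NCSTN, and 10.81 on MAPT, so that the references differed from each other by 1.03. Osmr, the oncostatin M receptor, was 6.46-fold, Serpina3n, a protease inhibitor, 3.46-fold, Vim 2.53-fold, and S100a6 4.30-fold higher, and in each of them the NCSTN level lay above the MAPT level. The median difference of NCSTN from MAPT over the list was 0.32, against 0.02 over all genes. Of 16 genes of resting astrocytes only Aqp4, the water channel at vessel endfeet, was a member. Its 2 probes had differences of 1.58 and 0.81, and with each array scaled to its 75th percentile it was no longer 2-fold higher than both references.

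**Figure D3:**
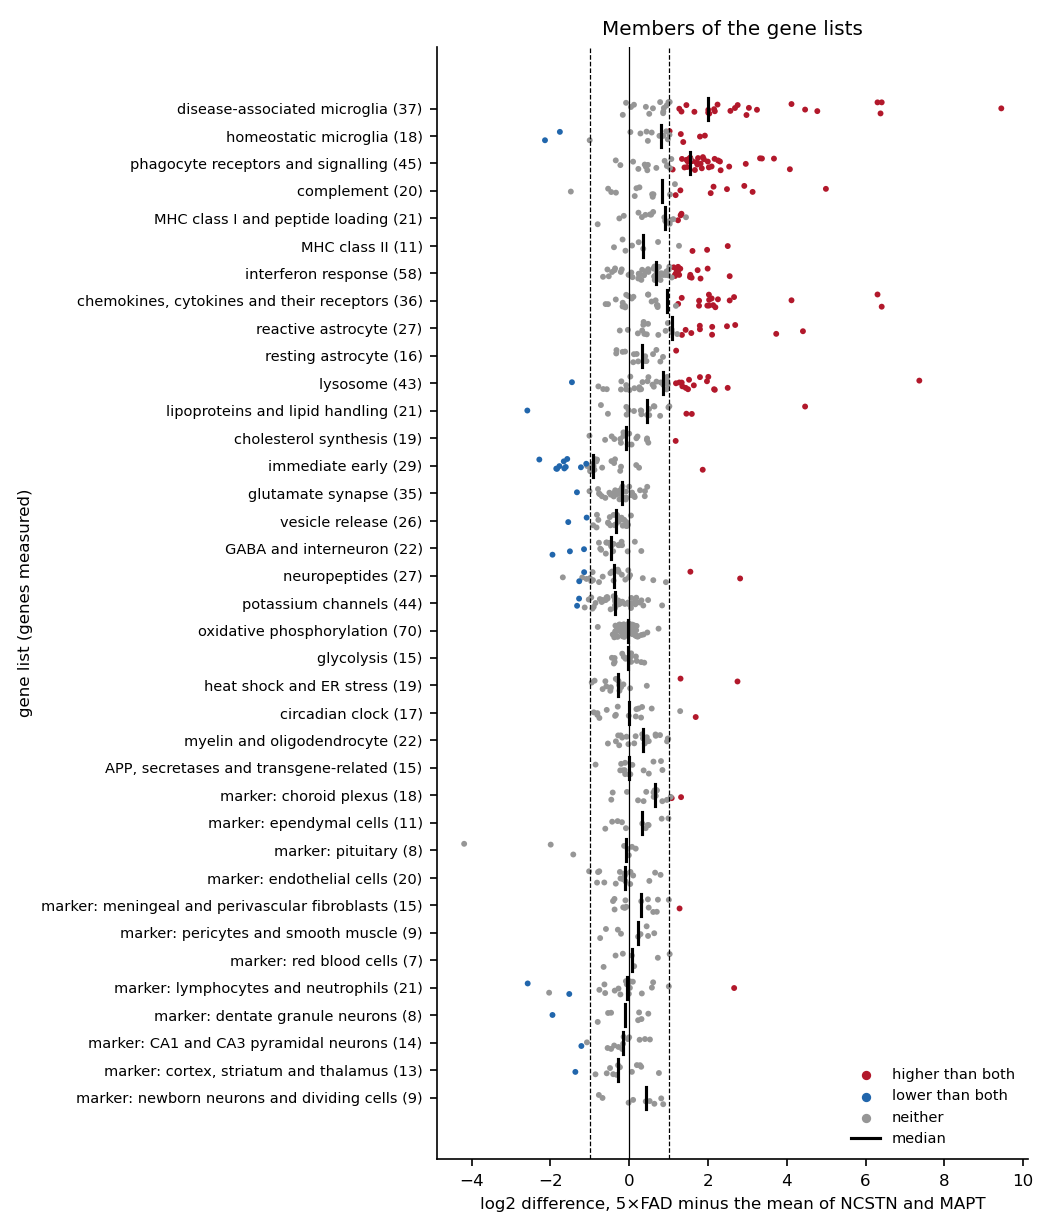
Log2 difference of 5×FAD from the mean of NCSTN and MAPT for every measured gene of the 37 lists, 1 point a gene, with the median of each list as a black bar and dashed lines at 2-fold. Points of the microglial, phagocyte, complement, chemokine, lysosomal, and reactive astrocyte lists lie mostly right of 0, those of immediate early genes mostly left of 0, and those of oxidative phosphorylation close to 0.

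Among the neuronal lists, that of immediate early genes had the most members. Of 29 measured genes, 10 were lower and 1 higher, against 2.26% of all genes lower, and the median difference was -0.91. Only 3 of the 29 had a difference above 0. Arc, which acts at the synapse in the removal of AMPA receptors, was at 11.42 on 5×FAD, 13.70 on NCSTN, and 13.71 on MAPT, or 4.86-fold lower. The transcription factor gene Fos was at 7.57 against 9.43 and 9.37, Egr1 at 11.04 against 12.64 and 12.72, and Npas4 at 8.67 against 10.36 and 10.13. The reference arrays agreed to within 0.23 for each of these 4 genes, and the 5×FAD level lay below both. Egr4 was 3.61-fold, Ier2 3.41-fold, Dusp1 3.16-fold, Nr4a1 3.05-fold, Dusp5 2.34-fold, and Homer1 2.13-fold lower. The 5 probes of Homer1 had differences of -0.57, -2.04, -1.20, -0.88, and -0.76, the first being that of the brightest probe. Junb and Fosb had differences of -0.83 and -0.94, and Bdnf one of 0.25. The member that was higher, Maff, is a small MAF transcription factor that is also induced by inflammatory signals. Without the NCSTN array, 16 genes of the list were lower, and without the MAPT array 12. With normexp correction the count fell to 7, with a difference of -0.54 for Ier2, and with the brightest probe it fell to 9.

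All 10 lower immediate early genes were also below each of the 5 ICR hippocampus arrays. So were 350 of all 452 lower genes and 38.7% of all genes measured. The genes were picked for a low 5×FAD level, which enters this comparison again, so that it is no independent support. Arc was between 12.63 and 14.24 on the 5 ICR arrays and between 12.35 and 14.47 on the 4 cortex arrays, all above the 5×FAD level of 11.42. Fos was between 8.24 and 9.57 on the ICR arrays, above its 5×FAD level of 7.57. Maff, at 7.46 on 5×FAD, was between 6.15 and 7.43 there. The time between handling and death, to which these genes respond, is not given for the transgenic mice in the sources used here. The CRE element TGACGTCA, bound by CREB, and the SRF CArG box, bound by serum response factor, were found in 5 and 2 of the 22 promoters of the list, and in 2.36% and 1.48% of all promoters. Of the lower members, Dusp1 held the first and Dusp5 a pair of the second, which are shown in capitals.
Dusp1 (chr17:26508588-26508635, minus strand): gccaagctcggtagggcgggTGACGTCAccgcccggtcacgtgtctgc
Dusp5 (chr19:53529043-53529092, plus strand): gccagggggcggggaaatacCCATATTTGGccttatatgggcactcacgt
Dusp5 (chr19:53529053-53529102, plus strand): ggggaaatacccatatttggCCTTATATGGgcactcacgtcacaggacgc
Both Dusp5 stretches overlap, since the boxes lie next to each other. Over all members, the CRE was found in 1.17% of promoters of higher genes and 3.27% of those of lower genes, and the AP-1 site TGANTCA in 12.9% and 5.06%, against 7.28% of all promoters.

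**Figure D4:**
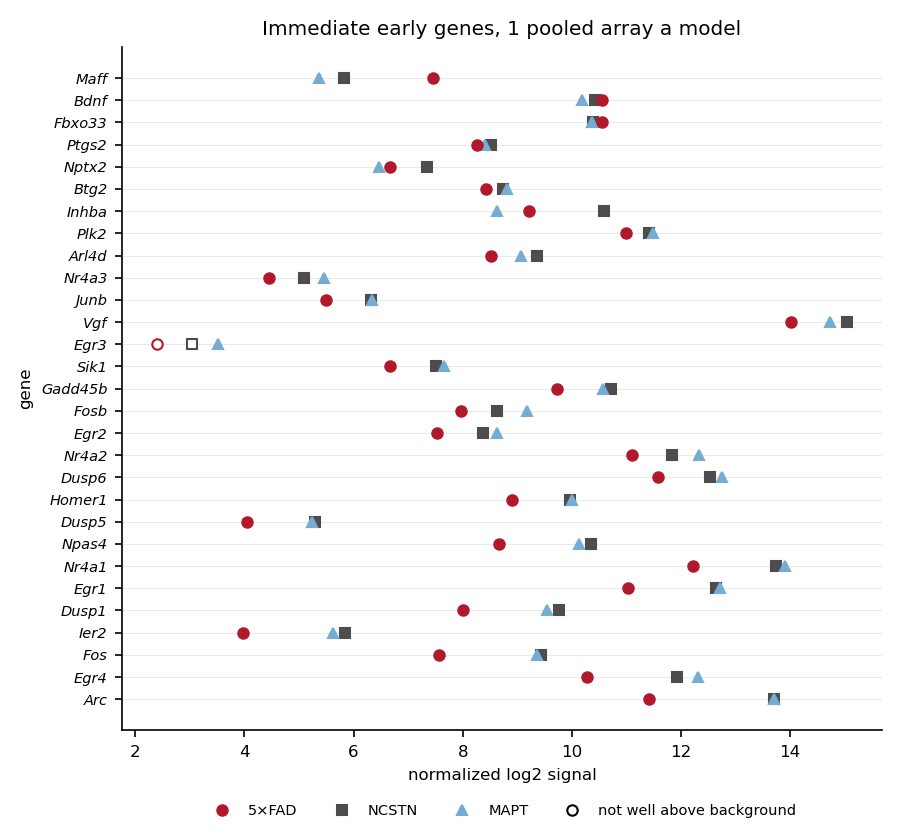
Normalized log2 signal of the 29 measured immediate early genes on the 5×FAD (red circles), NCSTN (dark squares), and MAPT (blue triangles) arrays, sorted by difference, with open symbols for levels not well above background. The 5×FAD point lies left of both references in most genes, from Arc at the bottom upward, and right of both in Fbxo33, Bdnf, and Maff.

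Other neuronal groups had fewer members. Of 35 genes of the glutamate synapse, only the NMDA receptor subunit gene Grin3a was lower (-1.33), and the median difference was -0.19. Among 26 genes of vesicle release, the fusion clamp gene Cplx2 (-1.55) and the calcium sensor gene Syt4 (-1.08) were lower (7.69%), the median difference was -0.33, and 1 gene had a difference above 0. The 4 probes of Cplx2 had differences of -0.48, -3.08, -1.12, and -1.51, the first being from a probe near the top of the signal range. Of 22 genes of GABA signaling and interneurons, Calb1, Gabbr2, and Gabrg3 were lower (13.6%), the median difference was -0.47, and 2 genes had a difference above 0. Calb1, the calcium buffer calbindin, which dentate granule cells and some interneurons make, was at 5.83 against 7.96 and 7.60. All 3 probes of Gabbr2, a GABA-B receptor subunit, were lower, whereas the probes of Gabrg3 were opposed (0.34 and -2.63). With normexp correction, none of the 3 genes stayed 2-fold lower.

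Neuropeptide and channel genes gave mixed results. Somatostatin (Sst) was at 13.72 on 5×FAD against 14.74 and 14.99, and Cartpt at 7.54 against 9.04 and 8.58. With quantile normalization over the 3 transgenic arrays alone, neither was 2-fold lower than both references. Neuromedin B (Nmb) was 2.93-fold higher on both of its probes, and neuromedin U (Nmu) was at least 6.06-fold higher. Without the NCSTN or the MAPT array, 6 of the 27 peptide genes were lower. Of 44 potassium channel genes, Kcnf1 and Kcnab2 were lower and none was higher. Of 70 genes of oxidative phosphorylation and 15 glycolysis genes, 0 were members, with a median difference of -0.02 in both. With a 1.5-fold threshold, 1 oxidative phosphorylation gene was higher and 1 lower, and in the deposited matrix 1 was 2-fold lower.

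Among stress and clock genes, Atf3, a stress-induced transcription factor, was 6.72-fold higher (8.25 against 5.48 and 5.53) and Trib3, a pseudokinase of the same pathway, 2.47-fold higher. The chaperone genes Hspa8 and Hspa1a had differences of -0.88 and -0.95. The clock gene Per3 was 3.22-fold higher, and Arntl, which peaks opposite to the Per genes, had a difference of -0.90. The hour of tissue collection is not given in the sources used here. No gene of myelin and oligodendrocytes was a member, although Trf, Bcas1, and Cldn11 lay between 0.96 and 0.99. Without the MAPT array, 3 genes of this list were higher.

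The genes farthest below the references belonged to none of the lists. Among genes measured on all 3 arrays, Klra1, a killer cell lectin-like receptor gene, was at 3.51 on 5×FAD against 8.09 and 8.49, or 27.4-fold lower. It was between 7.72 and 8.78 on the ICR arrays and at most 7.39 on the cortex arrays, so that the 5×FAD array was the lowest of the 12. The zinc finger gene Zfp982 was 16.6-fold, Gm10536 15.3-fold, and the olfactory receptor gene Olfr715b 14.0-fold lower. Mzt1, a subunit of the microtubule nucleation complex, was at 7.53 against 10.87 and 10.84. Vill, a villin relative, was 9.63-fold, Arl16, a small GTPase, 8.50-fold, Srarp 8.43-fold, Usp8, a deubiquitinase of endosomes, 8.32-fold, Lingo1, which restrains myelination, 7.59-fold, the small GTPase gene Rap1a 7.53-fold, Nat8f5 7.25-fold, and Gm5801 7.21-fold lower. Each gene named so far in this paragraph was read by 1 probe, so that no other probe could check its difference. Smco3, with 2 probes, was lower on both (-4.46 and -1.95). It was between 3.91 and 5.66 on the ICR arrays, around its level of 5.31 on 5×FAD, and Vill was similarly low there. Thus, for Klra1 and Arl16 the 5×FAD array stood apart from every other array, whereas for Smco3 and Vill the ICR arrays were also low.

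Some genes could not be measured above background in 5×FAD, and their lower limits are nominal in the same way, against the 5×FAD array. By its 1 probe, Dab2, an endocytic adaptor, was at 1.86 on 5×FAD and at 7.72 and 7.46 on the references, at least 47.0-fold lower. On the other 9 arrays it was between 7.15 and 9.37. The dioxin receptor gene Ahr was at least 12.1-fold lower by the mean of its probes, of which one was at 1.85 on 5×FAD against 9.24 and 9.32, and the other was not well above background on any of the 3 arrays. The next largest nominal limits among the 53 genes of this kind were those of Tlx3, Olfr23, Krt34, Lipc, Clec4a2, and Slc27a6, at 8.13-fold to 12.0-fold. Each of these 6 genes had 1 probe and was above background on no ICR array, and the references differed from each other by up to 2.89.

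Probes of the same gene allowed a check within the arrays. Of 154 higher genes with 2 or more probes, 81 (52.6%) had every probe at least 2-fold higher than both references, and 147 had every probe in the same direction. Of 95 lower genes with 2 or more probes, 23 (24.2%) had every probe at least 2-fold lower, and 90 had every probe in the same direction. The part of probe position or sequence in this was not tested. Higher genes made up between 2.79% (chromosome 13) and 5.69% (chromosome 5) of the genes of each autosome, and lower genes between 1.61% (chromosome 11) and 3.89% (chromosome 14).

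Genes of the models themselves were not members. App was at 15.72 on 5×FAD, 15.78 on NCSTN, and 15.87 on MAPT, and Mapt at 14.75, 14.64, and 14.71. Both lay within the range of the other 9 arrays, and the probes were designed for the mouse transcripts, so that they do not check the human transgenes. Ncstn was at 6.00 on the NCSTN array against 4.18 on 5×FAD and 4.06 on MAPT, and it was between 4.77 and 6.28 on the other arrays. Thy1, whose promoter drives the 5×FAD transgenes, was at 17.41 on 5×FAD against 16.56 and 16.57, a 1.79-fold to 1.80-fold difference. On the other 9 arrays it was between 16.44 and 16.88, so that the 5×FAD array was the highest of the 12.

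Markers of other cell types were read beside these results. Prox1 of dentate granule cells and Rgs14 and Wfs1 of pyramidal cells were well above background on all 3 arrays, as the hippocampal label requires, but so were 12 of 13 markers of cortex, striatum, and thalamus, so that detection alone does not tell these regions apart. Of 14 pyramidal cell markers and of 13 markers of cortex, striatum, and thalamus, 1 each was lower, and of 8 granule cell markers only Calb1. None of 20 endothelial, 9 pericyte, 11 ependymal, 9 newborn or dividing cell, and 7 red blood cell genes was a member. The 18 choroid plexus genes had a median difference of 0.65, with Kcnj13 and Slc13a4 higher and Ttr at 16.49 on 5×FAD against 16.84 and 16.97. Their summed signal was 218390 on 5×FAD, 193418 on NCSTN, and 207233 on MAPT. Of 15 meningeal and perivascular fibroblast genes, Aldh1a2 was higher, and their summed signals lay between 32082 and 32601.

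Blood cell genes gave no common direction. Among 21 genes of lymphocytes and neutrophils, Cd5 was higher (7.75 against 5.10 and 5.06), whereas Cd3g, Cd8a, and Ms4a1 were not well above background on any array and Cd3e had a difference of -0.76. S100a8 and S100a9, which neutrophils and monocytes make, were lower, with S100a9 at 4.88 against 7.61 and 7.30. The pituitary hormone genes Prl and Gh were at 12.35 and 6.71 on the MAPT array, against 3.25 and 1.70 on NCSTN and 3.61 and 2.21 on 5×FAD, and 3 pituitary genes were lower in 5×FAD when the NCSTN array was left out. The part of these tissues in the results above was not tested.

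**Figure D5:**
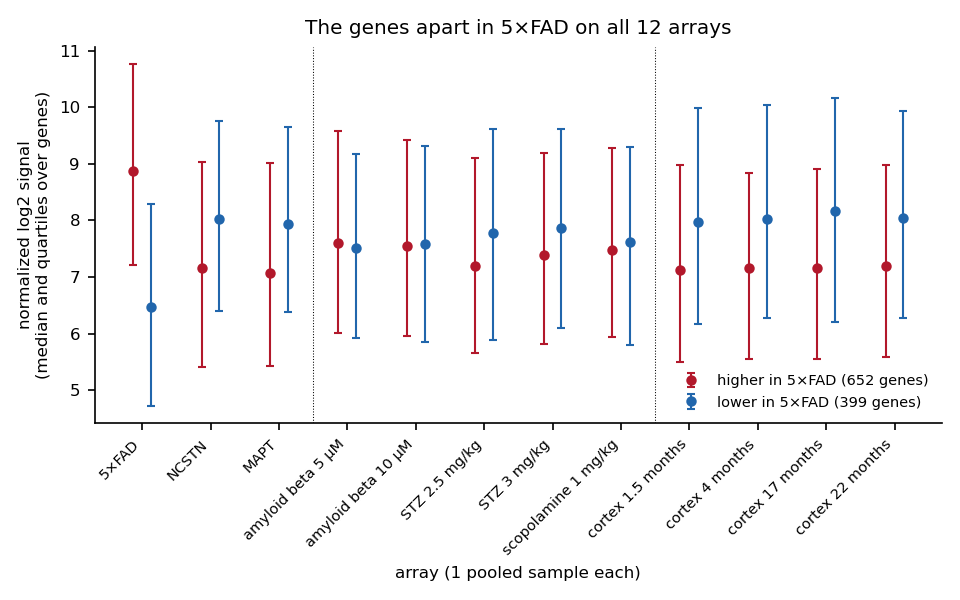
Median (points) and quartiles (bars) of the normalized log2 signal over the 652 higher (red) and 399 lower (blue) genes measured on all 3 transgenic arrays, on each of the 12 arrays. On 5×FAD the higher genes have a median of 8.87 and the lower genes of 6.46, and on the other 11 arrays the medians lie between 7.06 and 7.60 and between 7.51 and 8.16.

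The other 9 arrays, whose values the choice of genes had not used, were set beside the members. Of the 898 higher genes, 714 were higher on 5×FAD than on each of the 5 ICR hippocampus arrays, against 25.6% of all genes. By at least 2-fold, 380 (42.3%) were higher than on each ICR array, against 3.14% of all genes. At least 2-fold higher than on all of the other 11 arrays were 296 (33.0%), against 1.48% of all genes. Of the 452 lower genes, 350 were below every ICR array, against 38.7% of all genes, and 135 (29.9%) by at least 2-fold, against 1.43%. At least 2-fold below all other 11 arrays were 105 (23.2%), against 0.53% of all genes. Strain, age, and treatment of the ICR mice differ from those of the transgenic mice. The 652 higher genes measured on all 3 transgenic arrays had a median of 7.60 and 7.55 on the amyloid beta arrays. This was above the 7.16 and 7.06 of the references and below the 8.87 of 5×FAD. It was not particular to amyloid beta, since the STZ arrays, at 7.20 and 7.38, and the scopolamine array, at 7.47, were also above both references. The genes were picked by their 5×FAD and reference levels, and the same 5×FAD value enters these comparisons, so that a share above that of all genes follows in part from the choice and is no independent support.

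The 5×FAD mice were the youngest of the 3 models, and the cortex arrays give the change of the same genes with age in another region. Over the 898 higher genes, the median difference of the 17- and 22-month arrays from the 1.5- and 4-month arrays was 0.02, against 0.01 over all genes, and 54.0% of them were higher in old cortex, against 53.1% of all genes. Over the 452 lower genes the median was 0.06, and 58.8% were higher in old cortex. In old cortex, 31 of the higher genes (3.45%) were at least 2-fold above and 25 (2.78%) at least 2-fold below young cortex. Of the lower genes, 20 (4.42%) were above and 7 (1.55%) below by as much, and of all genes, 2.08% and 1.74%. Age and model still cannot be told apart in the hippocampus arrays.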

How the data were processed

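The authors purified hippocampal RNA, kept samples that passed a quality limit, pooled equal amounts from 3 animals, and amplified, labeled, and hybridized them to Agilent mouse 44K arrays. They deposited the spot intensity values that the scanner software extracted, with flags for outliers, saturation, and signals well above background, without scaling from array to array. A second deposited table, the authors' matrix of linear intensity values, was normalized, and in it the 5×FAD column has a median of 134 and the NCSTN and MAPT columns one of 117, so it was used only as an alternative (log2, each array centered on its median). The matrix followed the scanner signal on the log2 scale (the lowest r of the 3 arrays was 0.999, for MAPT). The methods name a filter at 1.4 times the local background and quantile normalization, while the reason for the separate distribution of the 5×FAD column is not given in the sources used here.

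From the deposited scanner files, log2 of the processed signal was taken, outlier spots were left out (110 to 175 on the 3 arrays), spots of a probe were averaged, and the 39429 probes were quantile normalized over the 12 arrays. Accessions without versions were matched to the RefSeq gene table of GRCm38.p6, which named 27508 probes. The files name no build, so gene coordinates are not given. Probes of 1 gene were averaged over those with an unflagged spot on all 3 arrays, and 28 probes without one were left out. Of 20878 genes, 845 on X or Y and 1 without a known chromosome were left out. A gene was well above background if at least 1 of its probes was. There were no replicates, so no test was made, and arrays are limited in precision by their number. Python 3.11.15 scripts, checked on simulated data, and limma 3.58.1 (normexp) were used.

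The members, the 37 gene and marker lists, and the rule for named genes were chosen with earlier results of these data known. Named were the 15 largest differences in each direction by the smaller of both differences, the 8 largest lower limits in each direction, the 3 largest members of each list in each direction, genes that define the class of a list, and the targeted and sex-linked genes. Other list genes, and the 12-array and age comparisons, were chosen after their values had been seen. A few of the genes named by this rule were left out of the text. Alternatives were 75th percentile scaling, quantile normalization of the 3 arrays alone, normexp with an offset of 50 on median signals (mean signals were not used here), a filter at 1.4 times local background on all 12 arrays, detection on all 3 arrays, the brightest probe, the matrix, each reference left out, and thresholds of 1.5-fold and 3-fold. Promoters and their coordinates are those of RefSeq (GRCm38.p6), and no motif searched contains another.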

Additional observations from a re-analysis of the deposited data

Results flagged for a closer look

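Sex-linked genes, which none of the comparisons used, separated the 3 transgenic arrays from the other 9. In the transgenic pools, Xist was higher by at least 89.2-fold, and it was not well above background on any of the other 9. Ddx3y was at least 352-fold and Eif2s3y at least 192-fold higher on the other 9 arrays. These limits are nominal, like those of the other genes not well above background. The methods describe all of these mice as male. The difference does not separate 5×FAD from NCSTN and MAPT.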

How the results depend on the processing

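With 1 pooled array a model, no replicate could be left out, and no paired analysis was possible because each model had 1 array. The counts of higher (898) and lower (452) genes stayed within 1.5-fold under 75th percentile scaling, quantile normalization of 3 arrays, the filter at 1.4 times background, detection on all 3 arrays, the brightest probe, and the deposited matrix. The median difference of all genes moved from -0.04 to -0.15 under 75th percentile scaling and to -0.23 in the matrix. Normexp correction left 359 higher and 116 lower genes and 61 genes apart between NCSTN and MAPT. Detection on all 3 arrays left 227 of these. Without the NCSTN array 858 genes were lower, and without the MAPT array 891. Thresholds of 1.5-fold and 3-fold gave 1974 and 324 higher, 1564 and 118 lower, and 1440 and 309 genes between the references. Of 100 named genes, 30 fell below 2-fold against at least 1 reference under normexp and up to 4 under each other alternative, and 3 changed direction with the brightest probe, namely Apod (0.67), Srebf2 (-0.79), and Gabrg3 (0.34). Normexp raises dim signals by a constant, and differences of dim genes shrink by construction. For genes not well above background on 1 side, only a nominal lower limit of the difference was given, and the true difference may be smaller.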

Other observations

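Gene families that had not been listed were read by symbol after the values had been seen, and are given as a description. Over all genes measured, 4.48% were higher and 2.26% lower. Of 9 Toll-like receptor genes, Tlr1, Tlr2, Tlr6, and Tlr12 were higher in 5×FAD, and of 4 genes of the NAIP family, which sense bacterial proteins, Naip6, Naip2, and Naip1 were higher. Of 9 SLAM family receptor genes, 5 were higher (Slamf9, Slamf8, Cd48, Cd84, and Slamf6). Both lysozyme genes, Lyz1 and Lyz2, and both measured Bcl2a1 genes were higher, and the members of each pair are near-identical in sequence. Of 22 cathepsin genes, 7 were higher and none lower. Of 27 killer cell lectin-like receptor genes, 4 were higher and Klra1 was lower, and of 18 genes of the MS4A family, Ms4a6c was higher and Ms4a19 lower.

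Chemosensory receptors are families that brain tissue is not known for. Members had to be well above background on the brighter side, which limits how many genes of such dim families could be called. Their shares are therefore no test. Of 1065 olfactory receptor genes, 92 of which were well above background on all 3 arrays, 16 (1.50%) were higher and 15 (1.41%) lower. Of 255 vomeronasal receptor genes, 28 of them well above background on all 3 arrays, 4 were higher and 4 lower. Of 360 zinc finger genes named Zfp, 350 of them well above background on all 3 arrays, 9 were higher and 14 (3.89%) lower, with a median difference of -0.18.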
